A study of Homo sapiens with 8 samples.

Results

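The 9 genes described here encode cyclins, the transcription factor E2F1 and regulators of the p53 pathway: CCND1, CCND2, CCND3, CCNE1, CCNE2, E2F1, MDM2, MDM4 and CDKN1A. They were chosen by name from the 19958 protein-coding genes of the gene table, and their sites are the distinct positions of the deposited list of YTHDF2 binding sites that lie inside each gene's genomic span on its strand. These were 29 of the 37613 distinct positions in the list. The positions come from iCLIP2 of YTHDF2 in HEK293T, an established human embryonic kidney line, wild type per the labels. In iCLIP2, a protein is fixed to the RNA it touches by ultraviolet light and pulled down with its antibody, and cDNA synthesis ends where the protein was attached. The list gives each site as a single nucleotide, and positions a few nucleotides apart are counted here as separate sites. Of the 8 libraries, 4 were from cells kept for 12 h in 20 µM STM2457, which inhibits the m6A methyltransferase METTL3, with 0.2% DMSO as solvent, and 4 were from cells kept as long in 0.2% DMSO alone. The question of the study was where YTHDF2 needs m6A to bind. No row of the list is labelled with a library or treatment, so STM2457 and DMSO were not compared. The values below have no replicate error and no known read depth.

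YTHDF2 binds mRNA that carries N6-methyladenosine (m6A) and recruits factors that degrade it. D-type cyclins bind the kinases CDK4 and CDK6, and E-type cyclins bind CDK2. These kinases phosphorylate the retinoblastoma protein and release E2F transcription factors, which switch on genes for DNA replication. The p53 protein halts this step through the kinase inhibitor p21, the product of CDKN1A, and is itself kept low by MDM2 and MDM4. HEK293T cells carry the SV40 large T antigen, which binds both p53 and the retinoblastoma protein, and this limits the line as a model of either pathway.

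YTHDF2 sites were listed in 7 of the 9 genes, against 38.9% of all protein-coding genes, and MDM2 held 15 of the 29 sites. CCND1 and CDKN1A had none. The other genes had between 1 and 4 sites each: MDM4 had 4, CCND2 and E2F1 had 3 each, CCNE1 had 2, and CCND3 and CCNE2 had 1 each. The median over the 7 genes with a site was 3, and over the 7770 protein-coding genes with a site it was also 3, with quartiles of 2 and 6. The 38.9% counts every gene of the table, whether or not HEK293T cells express it, and expression was not measured in this list. Genes rather than samples are counted here, and no test was made across them.

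**Figure D1:**
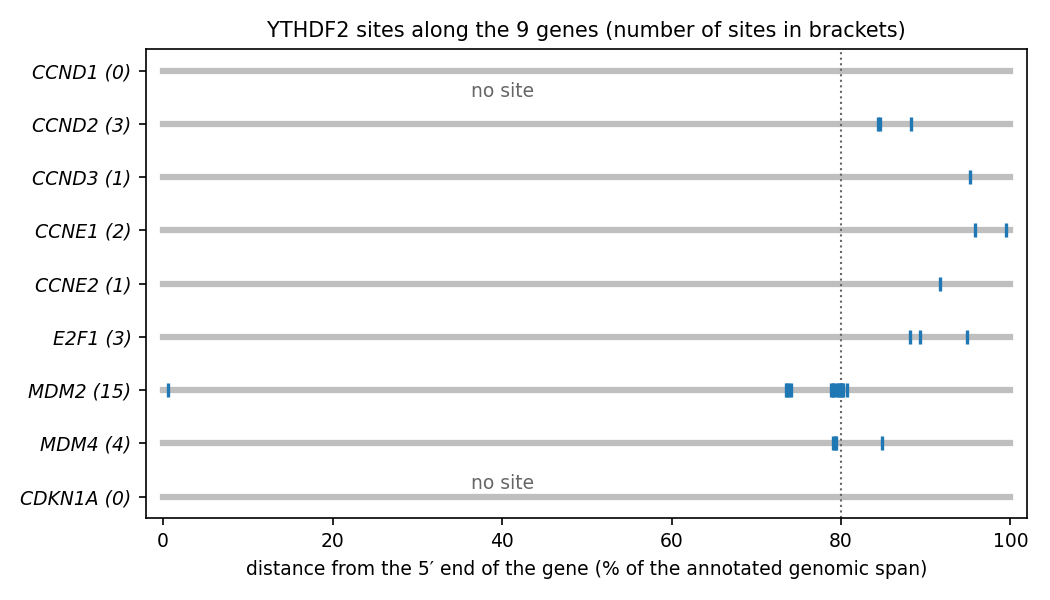
Positions of YTHDF2 sites (blue ticks) along the 9 genes, drawn from the 5′ end to the 3′ end of each annotated genomic span in percent of that span, introns included; the dotted line marks 80%. All sites of CCND2, CCND3, CCNE1, CCNE2 and E2F1 lie to the right of the line, whereas MDM2 and MDM4 have sites on both sides of it and MDM2 has 1 at its 5′ end.

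MDM2, the ubiquitin ligase that marks p53 for degradation and is itself switched on by p53, had 15 sites in a span of 42.5 kb on chromosome 12, plus strand. Of the 7770 genes with a site, 260 had more sites than MDM2 and 54, itself included, had 15. Over all protein-coding genes, 1.57% had 15 or more. Among the 1854 other genes whose span was within 1.2 times that of MDM2, 1.78% had as many sites or more. MDM2 was therefore near the top of the list in number of sites, and the other members were not.

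The MDM2 sites fell into 3 groups separated by more than 1 kb. A single site at position 68808431 (GRCh38, as all positions here) lay 259 nt from the 5′ end of the gene, with a score of 1.59. MDM2 has an upstream promoter and an internal one that responds to p53, and this site lay 586 nt upstream of the nearer of the internal RNA starts in the RefSeq promoter table, so it is outside RNAs that begin there. After a stretch of 31.0 kb without a site, 4 sites followed within 271 nt, from 68839411 to 68839681. The last 10 sites lay within 784 nt, from 68841682 to 68842465, and 2001 nt separated them from the preceding 4.

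The score of a site is a positive number given by the authors, on a scale that the labels and the list do not state, and it is used only to rank sites within the list. Over all 37613 positions its median was 8.67, with quartiles of 3.75 and 20.8 and a maximum of 708. In the group of 4 MDM2 sites, the site at 68839466 scored 146, above 98.5% of all positions. Its 3 neighbours at 68839411, 68839551 and 68839681 scored 5.37, 6.90 and 14.0. A single high site thus stood among lower ones, and those at 68839411 and 68839551 were below the list's median.

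In the group of 10 MDM2 sites, the site at 68842162 scored 412, above 99.9% of all positions and number 43 in the list by score. The site at 68841948 scored 121 and the one at 68842031 scored 60.8. Upstream of these, the sites at 68841682, 68841766 and 68841770 scored 21.8, 20.3 and 30.4, and the site at 68842068 between the high ones scored 27.6. Downstream of the highest site, those at 68842255 and 68842272 scored 8.02 and 3.04, below the list's median, and the last one at 68842465 scored 32.8. Within this group 8 of 10 sites were at or above the list's median, against 2 of 4 in the preceding group. The last 3 positions also lie in the span of CPM, a gene on the minus strand that has 0 sites of its own, and all 3 are on the MDM2 strand.

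So many sites so close together were uncommon in the list. The most sites of MDM2 in any 1 kb was 10, and 141 of the 7770 genes with a site, or 1.81%, had a 1 kb window with 10 or more, against a median of 3. This share depends in part on the number of sites per gene, since such a window needs at least 10. It also depends on counting close positions singly. In MDM2, 6 sites lay within 50 nt of another, all in the group of 10, and joining sites within 50 nt left 12 of its 15. Over the whole list, 29.7% of positions had such a neighbour. Windows of 1 kb were not counted again after joining, in MDM2 or in other genes. MDM2 had 3 sites with a score of 100 or more, and 1 of the 7 genes with a site, MDM2, reached that score, against 10.4% of all genes with a site. The genes most like MDM2 by the same number of sites and the nearest genomic span, out of 53 others with 15 sites, were USPL1 (log2 ratio of spans 0.01), ZNF714 (0.01) and SLC7A5 (−0.11). Their most sites in 1 kb were 7 in USPL1, 9 in ZNF714 and 7 in SLC7A5, and their highest scores were 60.6, 46.6 and 248 in the same order. With close positions counted singly, MDM2 was above these 3 genes by both measures. By the median score of its sites, 21.8, MDM2 was above USPL1 at 10.8 and ZNF714 at 11.3 and below SLC7A5 at 40.9.

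**Figure D2:**
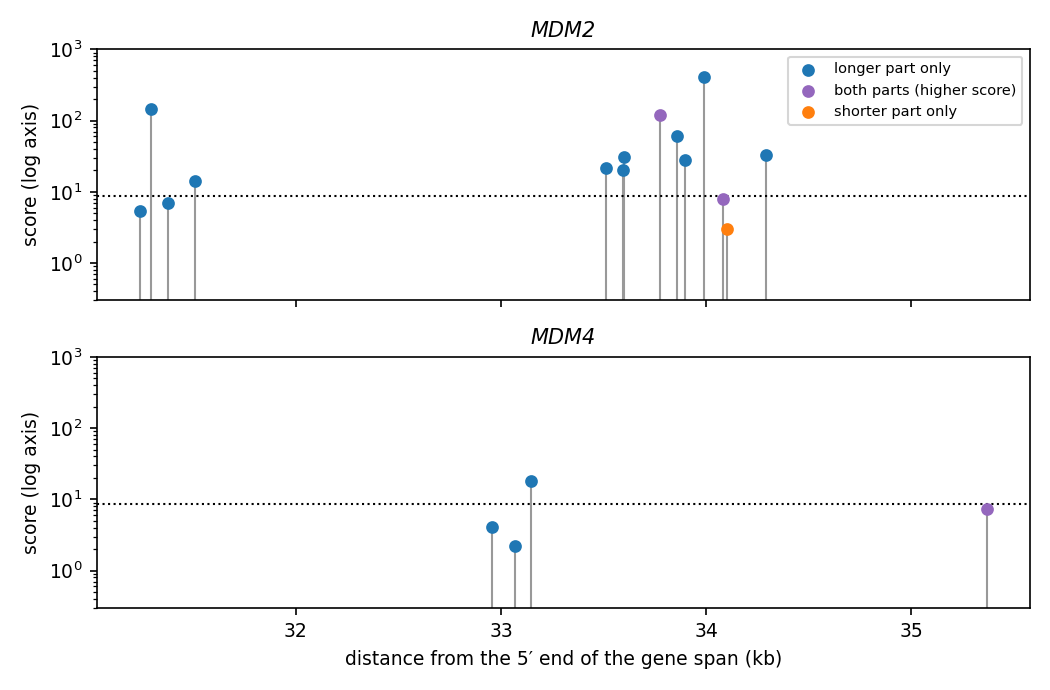
Score of each site on a log axis against the distance in kb from the 5′ end of the gene span, for MDM2 (upper panel, without its 5′ site) and MDM4 (lower panel); colours give the part of the list, split by the order of its rows, that holds the position, and the dotted line is the median score of all positions, 8.67. MDM2 has a group of 4 and a group of 10 sites reaching 146 and 412, and MDM4 a group of 3 and a single site, all under 20.

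MDM4, a relative of MDM2 that binds p53 and pairs with MDM2, had 4 sites in a span of 41.7 kb on chromosome 1, plus strand, close to the 42.5 kb of MDM2. The first 3 lay within 192 nt, at 204549361, 204549473 and 204549552, with scores of 4.04, 2.22 and 18.2. The last one lay 2224 nt further on at 204551776 and scored 7.37. In both genes a group of sites was followed by a genomic gap of just over 2 kb. Beyond it lay 10 sites in MDM2 and 1 in MDM4. How common such gaps are in other genes was not counted. MDM4 had fewer and lower-scoring sites than MDM2. The highest MDM4 score was above 71.6% of all positions, against 99.9% for the highest of MDM2. Of genes with a site, 38.6% had more than 4. Measured from the annotated 3′ end of the gene, the last MDM4 site was at 6.34 kb and the last MDM2 site at 8.22 kb.

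**Figure D3:**
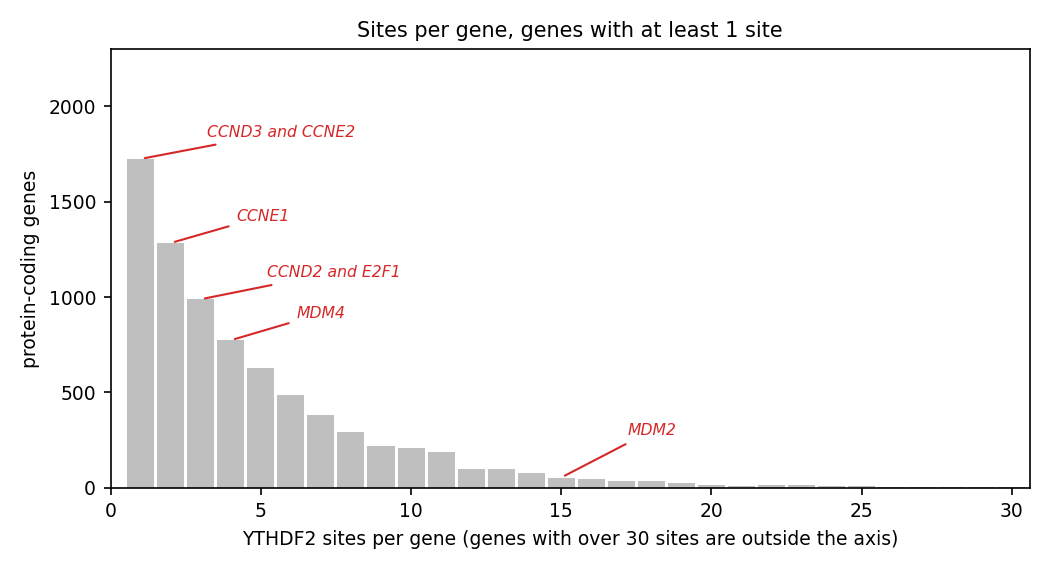
Number of protein-coding genes (bars) against the number of YTHDF2 sites per gene, for genes with at least 1 site, with the members in red at their number of sites. MDM2 lies in the tail at 15, and the other 6 members with a site lie between 1 and 4.

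The D-type cyclins had 4 sites between them, in 2 of 3 genes. CCND2 had 3 sites on chromosome 12, plus strand, in a span of 31.6 kb. The site at 4300413 scored 19.8, the one 72 nt downstream at 4300485 scored 4.18, and the one at 4301637 scored 0.837. They lay between 4.94 and 3.72 kb from the annotated 3′ end, with the score falling from the first to the last. CCND3 had 1 site, at 41940415 on chromosome 6, minus strand, with a score of 12.2, above 60.8% of all positions. Its span of 115 kb is the longest of the 9 and includes distant alternative starts. The site lay 1393 nt downstream of 1 of the 3 starts in the promoter table and 1210 nt upstream of another, so RNAs that begin at that downstream start do not contain it.

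CCND1, the D-type cyclin that is a common oncogene, had no listed site in its span of 13.3 kb. The nearest listed position on its strand lay 549 kb away, in FADD. Among other genes with a span within 1.2 times that of CCND1, 38.0% had a site. The absence of a listed site does not show that YTHDF2 leaves the RNA unbound, since the read depth over the gene and any filters of the authors are unknown.

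Both E-type cyclins had a site, 3 between them. CCNE1 had 2 on chromosome 19, plus strand, at 29823802 and 29824249, which are 447 nt apart. They scored 36.0 and 0.904. The first is the highest score outside MDM2, above 86.0% of all positions, and the second is above only 6.33% of positions and lies 63 nt from the annotated 3′ end. CCNE2 had a single site at 94881584 on chromosome 8, minus strand, with a score of 12.5, 1.36 kb from its 3′ end. That position also lies in the span of INTS8, and the tables give no strand for INTS8.

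E2F1, an activator of genes for entry into DNA replication, had 3 sites within 732 nt on chromosome 20, minus strand, in a span of 10.9 kb. In the direction of transcription they were at 33676763, 33676635 and 33676032, with scores of 13.8, 3.25 and 6.26. The first was above the list's median and the other 2 were below it. Among other genes with a span within 1.2 times that of E2F1, 21.2% had 3 or more sites. CDKN1A, whose product p21 inhibits cyclin-dependent kinases and whose transcription is raised by p53, had no listed site in its span of 10.9 kb. The nearest position on its strand was 73.6 kb away, in SRSF3, and 36.1% of other genes with a similar span had a site.

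**Figure D4:**
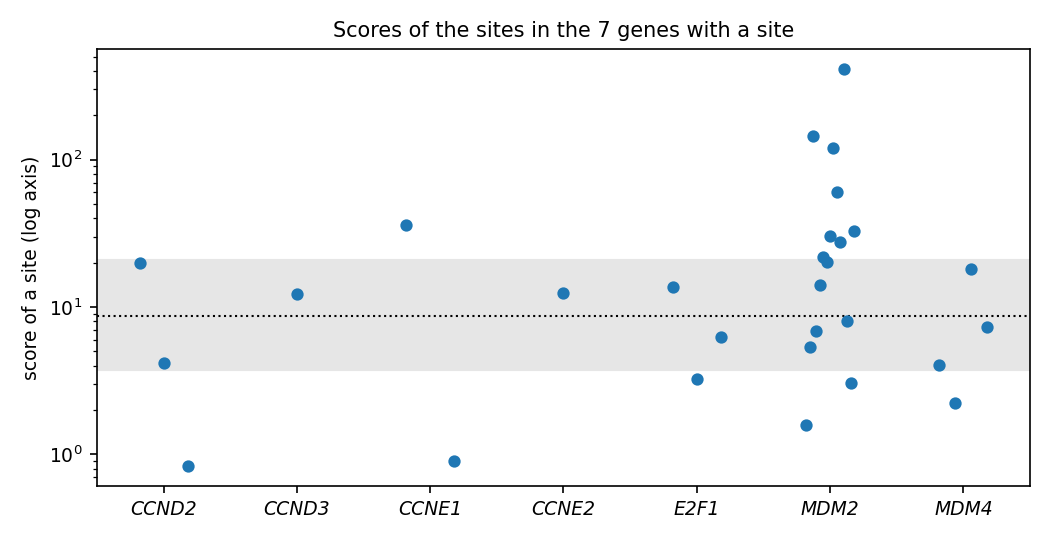
Score of every site (points) on a log axis for the 7 genes with a site, each gene's points in order from its 5′ end; the dotted line is the median of all positions and the grey band runs between their quartiles, 3.75 and 20.8. Each of the 7 genes has at least 1 site above the dotted line, as do most genes with a site, and of the 7 MDM2 alone has scores above 100.

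Over all 29 sites the median score was 12.5, against 8.67 over all positions, and 16 sites (55.2%) were at or above that value. MDM2 decided this difference. Of its sites 10 of 15 were at or above the list's median, against 6 of 14 in the other genes, and without MDM2 the median score was 6.81. All 7 genes had at least 1 site at or above the list's median, as did most genes with a site. Only 31.7% of genes with a site had a highest score below the 12.2 of CCND3, the lowest among the 7. The median over the 7 genes of the highest score per gene was 18.2, against 21.8 over all genes with a site.

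The share of sites in the 3′ part of the genes was not above that over all genes, and 15 of the 29 sites are in MDM2. In 5 of the 7 genes, all but MDM2 and MDM4, every site lay in the last 20% of the genomic span, against 41.1% of all genes with a site. Counted by site, 14 of 29 (48.3%) lay there, against 53.2% over all genes. MDM2 had 3 of its 15 sites there and MDM4 1 of its 4. The MDM2 sites from 68841682 to 68842162 lay at 78.8 to 79.9% of the span, just short of the last 20%. So did the first 3 MDM4 sites, at 79.0 to 79.5%. In the last 1 kb there were 3 sites, 2 in CCNE1 and 1 in E2F1, or 10.3% against 16.9% over all genes. At least 1 site in the last 1 kb was thus found in 2 of the 7 genes, against 37.8% of genes with a site. Spans include introns and end at the most distant annotated transcript end, and exons and coding sequence were not used here, so these distances are not those along the mature mRNA.

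Some positions stand on 2 rows of the list, with a score each. By row order the list falls into a shorter part of 8935 rows and a longer part of 34243 rows, which are not labelled. Of the 29 sites, 22 were only in the longer part, 3 only in the shorter part, and 4 (13.8%) were in both, against 14.8% of all positions. At least 1 site on 2 rows was found in 3 of the 7 genes, against 42.8% of genes with a site. The 2 scores were 121 and 42.1 at 68841948 and 8.02 and 0.305 at 68842255 in MDM2. They were 12.5 and 6.53 in CCNE2, and 7.37 and 7.36 at 204551776 in MDM4. The scores were nearly equal at the MDM4 position and unequal at the other 3.

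Most other genes of the same pathways also had a site. The members' share was 77.8%, and of 105 other genes in 6 lists of pathway genes, 74 (70.5%) had a site, with a median of 4 sites. Of these 74 genes, 10 reached a score of 100, against 10.4% of all genes with a site. The highest number of sites among the 105 was 13, against 15 in MDM2. Among partners and inhibitors of the G1 cyclins, 11 of 14 had a site, with FBXW7, which marks cyclin E for degradation, at 12, CDKN2C at 11 and CDKN2B, like it an inhibitor of CDK4 and CDK6, at 8. Of the other RB and E2F genes, 11 of 16 had a site, led by E2F3 at 11, LIN54 at 8 and TFDP1, a dimer partner of E2F proteins, at 6. Of other cyclins, 11 of 15 had one, led by CCNT1 at 13, CCNF at 10 and CCNJ at 8.

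On the p53 side, 11 of 17 other regulators of p53 had a site. USP10, a deubiquitinase that acts on p53, had 12 with a highest score of 309, the kinase HIPK2 had 11, and the phosphatase PPM1D, TP53BP1 and the deubiquitinase USP7 had 7 each. Of 27 other p53 target genes, 17 had a site, with TNFRSF10B, a death receptor, at 8 and CCNG1 and TIGAR at 6 each. E2F targets had a site in 17 of 20 cases, with MCM6, a subunit of the replicative helicase, at 7, and with MCM3, MCM4, MYBL2 and RRM2 tied at 6. The highest score among these 5 was 255 in MCM3. Each of the 6 pathway lists was above the 38.9% of all genes, and the part that expression in HEK293T plays in this was not tested. Some genes, such as CCNG1, are in more than 1 list, so the lists are not independent of one another. As a check of the cells, 0 of 7 haematopoietic marker genes had a site, and 5 of 8 kidney-lineage or HEK293T-expressed genes did, although binding sites do not measure expression.

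**Figure D5:**
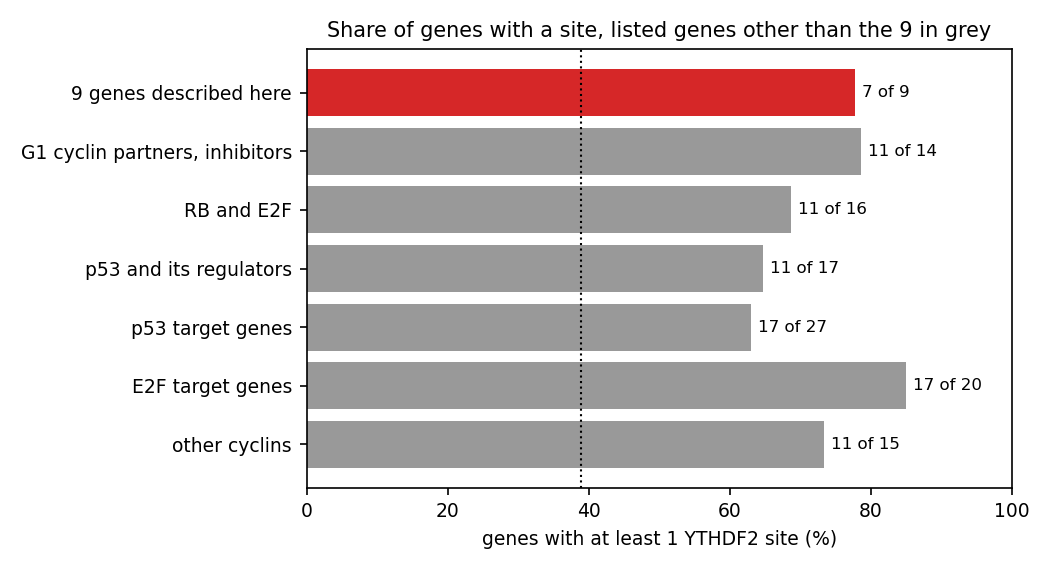
Share of genes with at least 1 YTHDF2 site, in percent, for the 9 genes (red) and for the other genes of 6 pathway lists (grey), with the numbers beside the bars; the dotted line is the share of all protein-coding genes, 38.9%. The 9 genes at 7 of 9 lie inside the range of the 6 lists, which runs from 17 of 27 to 17 of 20.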

How the data were processed

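The deposited file is 1 list with no header, each row of which names a 1 nt position, its strand and a score. The authors' score has no stated scale. FastQC 0.11.8, STAR 2.7.3a, UMI-tools 1.0.0, bedtools 2.27.1 and the build GRCh38.p12 are named, with no role, per the submitters' processing notes. How sites were called and replicates handled is not stated there. Columns of single samples number 0.

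Repeated rows of a position were merged under their higher score (Python 3.11.15, pandas 2.3.3). Spans came from a RefSeq gene table on GRCh38.p14, which shares its main chromosomes, without readthrough genes. Strand came from a promoter table for 15767 genes, from general knowledge for CCND1, CCND2 and CCNE2, and from the majority of sites for 1221. Of 2967 genes with no strand, counted as without a site, 105 overlap one. A position in overlapping genes of 1 strand counts in each. Groups of sites were split at gaps over 1 kb. Counting was tested on simulated sites.

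Members and lists were chosen with earlier results of these data known. Up to 3 other genes with the most sites were named per list, ties by symbol (MYBL2, RRM2, TP53BP1 and USP7 were added for their ties after their values were seen), with every member and each of its sites. No sequence around the sites was used here.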

Additional observations from a re-analysis of the deposited data

How the results depend on the processing

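The members' counts depended on score and on the part of the list, not on strand or gene ends. Their 29 sites and 7 genes with a site were the same with either strand and with spans widened by 1 kb. With only sites at or above the list's median score, 16 sites stayed, 1 of them in the last 1 kb, and the median score was 24.7, which this choice itself raises. The longer part alone gave a median score of 13.9. The shorter part alone, which holds fewer rows, gave 4 genes with a site, 7 sites, 0 in the last 1 kb and a median score of 6.53. With sites within 50 nt joined, 26 sites stayed, 12 of them in MDM2, and the median score was 12.4. With the lower of 2 scores kept, the median score was 12.2. Sites in the last 2 kb numbered 6. Without MDM2, a setting chosen after seeing the data, 14 sites remained and the median score was 6.81. Single genes' counts moved by over 1.5 times for 4 genes with the higher-scoring sites and for 6 with the shorter part. No paired analysis was possible because the list has no values labelled by library. For that reason leaving out replicates and the comparison of STM2457 with DMSO were not run.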
